A study of Mus musculus with 6 samples.

Results

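Small cell lung cancer tumours of mouse lung were profiled by paired-end mRNA sequencing, and the account concerns the 3 control tumour libraries among the 6 samples of the series. They were chosen by their label alone: all are of the control genotype, and the other 3 samples are Keap1 knockout tumours, which were not used here. Every one of these tumours is labelled QKO, a name the labels do not spell out, and was taken about 4 months after virus injection. The labels do not say what the virus carried, whether the 3 libraries came from separate animals, or of which sex, strain and age these were. What separates the controls from each other is therefore described as differences between libraries, with no test, since each library stands alone. Keap1, the gene knocked out in the other group, encodes the adaptor that targets NRF2 for degradation and was at 80.3, 76.97 and 59.5 CPM (read counts scaled to the size of each library) in controls 1, 2 and 3.

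Small cell lung cancer is the neuroendocrine cancer of the lung. Its cells carry secretory granules and are held in that state by transcription factors such as NEUROD1 and INSM1, and variants with low neuroendocrine features, often marked by YAP1, are known. Squamous cells, by contrast, are built around keratins, desmosomes and the factor p63, whereas mesenchymal and bone-forming cells secrete collagens and mineral-binding proteins. All of these programmes met in the control group. Of 10 defining markers of small cell lung cancer, 8 were at least 4-fold higher in control 3 than in each other control, against 9.41% of all genes, and they summed to 444, 456 and 5502 CPM in controls 1, 2 and 3. Neurod1 stood at 0.156, 0.205 and 97.01 CPM and Chga, which encodes the granule protein chromogranin A, at 8.11, 0.512 and 960.4. By these markers the label suited control 3, whereas Neurod1 had 3 and 4 reads and Chga 156 and 10 in controls 1 and 2. Nkx2-1, the lineage factor of lung epithelium and also 1 of the 10 markers, was present in all of them at 334, 381 and 542 CPM. It made up most of the summed marker level in controls 1 and 2, but not in control 3.

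The promoters of 4 genes that stood for these contrasts follow, 300 bases each from 250 before to 50 after the gene start, 5′ to 3′ on the gene's strand, from RefSeq on build GRCm38.p6. Krt13, Ibsp and Magel2 are the leading genes of controls 1, 2 and 3 by the naming rule and Pcif1 is among the 10 most constant genes, and capitals mark CG dinucleotides. Krt13 lies at chr11:100121517-100121816 on the minus strand and holds 2 CG pairs, Ibsp at chr5:104299037-104299336 on the plus strand with 5, Magel2 at chr7:62376729-62377028 on the plus strand with 10, and Pcif1 at chr2:164879118-164879417 on the plus strand with 23.
Krt13: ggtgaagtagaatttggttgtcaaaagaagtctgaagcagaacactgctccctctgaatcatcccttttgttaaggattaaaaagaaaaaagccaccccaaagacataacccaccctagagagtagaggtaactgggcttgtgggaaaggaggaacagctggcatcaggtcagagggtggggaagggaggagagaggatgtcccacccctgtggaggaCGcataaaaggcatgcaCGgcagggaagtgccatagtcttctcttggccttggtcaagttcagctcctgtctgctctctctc
Ibsp: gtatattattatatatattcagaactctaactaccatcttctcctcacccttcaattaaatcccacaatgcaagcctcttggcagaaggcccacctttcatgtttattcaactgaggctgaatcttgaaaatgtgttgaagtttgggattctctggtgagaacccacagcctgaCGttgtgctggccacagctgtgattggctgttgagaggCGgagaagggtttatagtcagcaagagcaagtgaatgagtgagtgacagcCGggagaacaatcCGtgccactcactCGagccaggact
Magel2: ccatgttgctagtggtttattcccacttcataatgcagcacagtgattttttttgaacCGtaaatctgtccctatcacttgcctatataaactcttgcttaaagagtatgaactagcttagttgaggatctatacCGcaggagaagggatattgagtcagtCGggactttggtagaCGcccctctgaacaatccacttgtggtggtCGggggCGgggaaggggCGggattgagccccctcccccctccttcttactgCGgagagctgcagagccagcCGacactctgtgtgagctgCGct
Pcif1: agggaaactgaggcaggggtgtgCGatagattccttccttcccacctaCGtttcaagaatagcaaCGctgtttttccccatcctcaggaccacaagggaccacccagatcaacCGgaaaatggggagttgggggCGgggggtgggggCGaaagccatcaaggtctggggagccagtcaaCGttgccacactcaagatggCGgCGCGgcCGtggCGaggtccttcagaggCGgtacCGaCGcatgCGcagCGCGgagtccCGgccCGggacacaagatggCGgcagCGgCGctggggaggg
Krt13, a keratin of stratified mucosa, was at 2698, 1.49 and 0.252 CPM in controls 1, 2 and 3. Ibsp, which encodes bone sialoprotein, was at 0, 2214 and 1.21 CPM. Magel2, an imprinted gene of the paternal chromosome, was at 0, 0 and 343 CPM. Pcif1, an enzyme that methylates mRNA caps, was at 100.5, 100.5 and 100.1 CPM. A different library was thus high for each of the first 3 genes and close to 0 in both others, and the last gene was level.

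The 3 libraries held 20065069, 19881823 and 18731515 counts over 56980 gene identifiers, of which 20783 were kept, and no library was a copy of another. Control 3 stood apart. Across the genes kept, which are not independent replicates, controls 1 and 2 had a Pearson correlation of 0.907 on the log2 scale, control 3 one of 0.802 with control 1 and 0.797 with control 2. Controls 1 and 2 were at least 4-fold apart in 2204 genes (10.6% of genes), controls 1 and 3 in 5011 (24.1%) and controls 2 and 3 in 4532 (21.8%). The 100 genes with most counts took 15.1%, 15.6% and 11.7% of counts, and mitochondrial genes 1.39%, 1.15% and 1.41%.

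The standard deviation (SD) of a gene's log2 CPM over the 3 libraries had a median of 0.68, where Poisson counting alone would give a median of 0.0849, and it exceeded the counting value in 19741 of the 20783 genes. In 6768 genes (32.6% of genes) the highest library was at least 4-fold above the lowest, and in 8350 (40.2%) all 3 lay within 2-fold. A gene was called high or low in a library when it lay at least 4-fold from each other control, and 4431 genes (21.3%) had such a call. Control 3 was high in 1956 genes, control 1 in 549 (2.64%) and control 2 in 498 (2.40%). It was low in 1114 (5.36%), control 2 in 495 (2.38%) and control 1 in 367 (1.77%). Of these, 548 genes (2.64% of all) were called both high in 1 library and low in another, so that all 3 libraries were far apart. With at least 10 reads in a library and none in both others, 55 genes were found in control 1 (0.265%), 38 in control 2 (0.183%) and 144 in control 3 (0.693%).

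**Figure D1:**
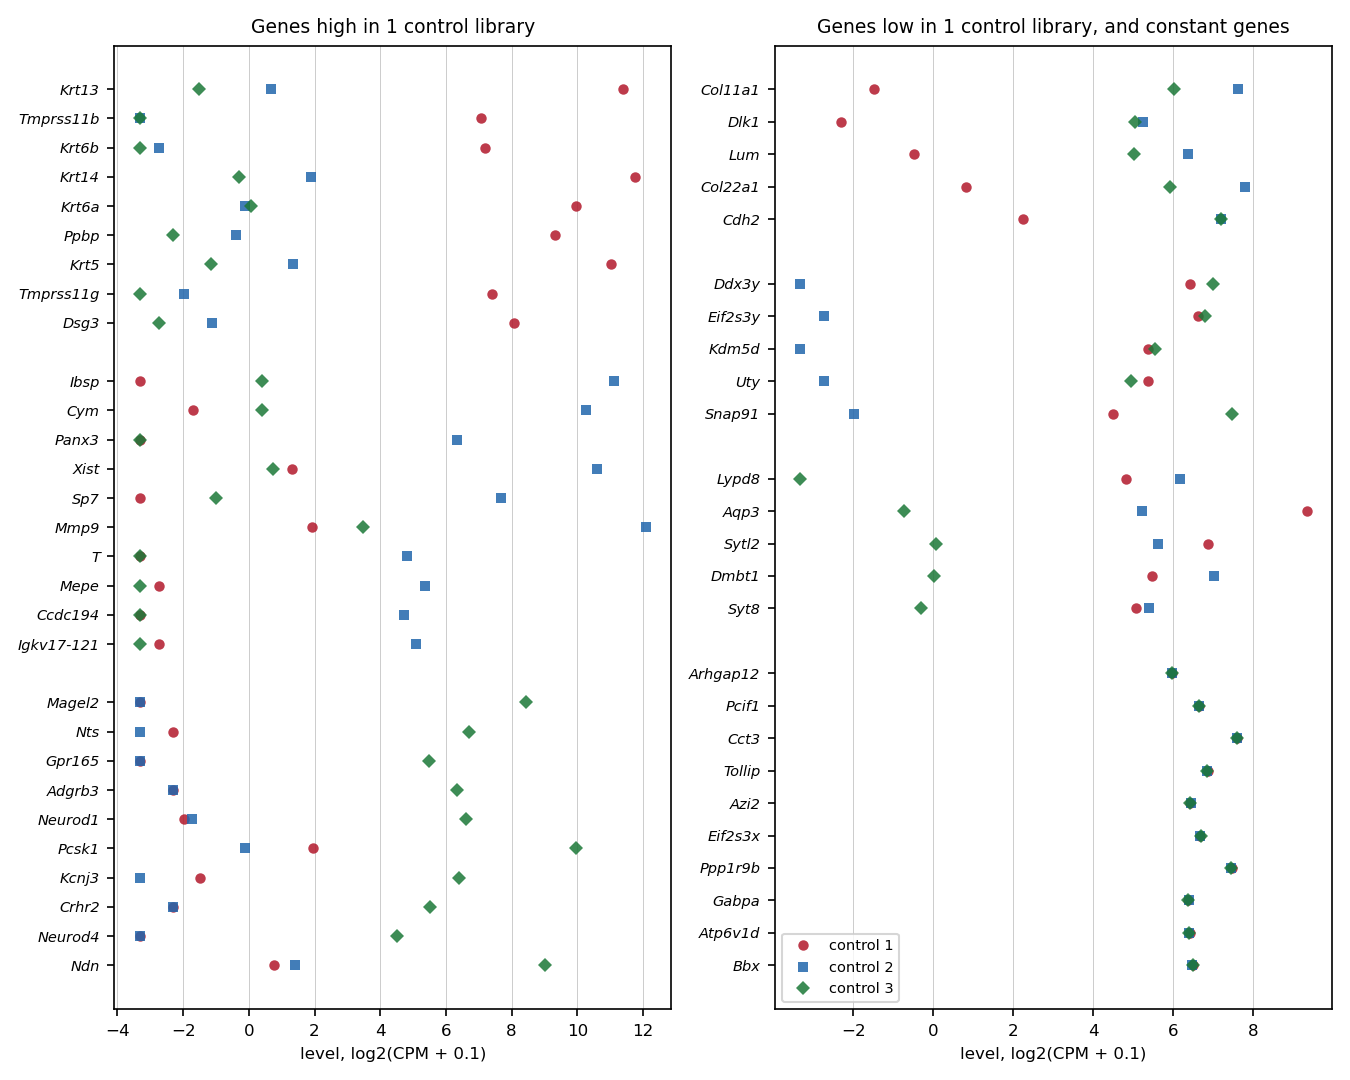
Levels of the genes that differed most and least among the controls, as log2 of CPM plus 0.1 on the x axis and 1 gene per line, with a marker for each control library (markers hide each other where values coincide). On the left, genes named for control 1, 2 and 3 lie far to the right in that library, and on the right the low genes lie far to the left while the constant genes form 1 point each.

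The gene lists that varied most were lists of cell lineages. Among the 500 genes with the largest SD (2.41% of genes, SD of at least 3.30), the median ratio of the highest to the lowest library was 161-fold, 323 were high in control 3, 92 in control 1 and 61 in control 2. Of them 100 (20%) belonged to at least 1 of 50 gene lists, against 5.39% of all genes kept. Those lists also hold core machinery and were chosen with earlier results of these data known. The larger share is therefore no test of lineage genes. The lists with the largest median SD were the small cell lung cancer markers (4.18), basal and squamous keratins (3.56), neuroendocrine granule genes and neuroendocrine transcription factors (3.13 each), neuronal genes (3.01), osteoclast markers (2.98) and squamous genes (2.84).

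**Figure D2:**
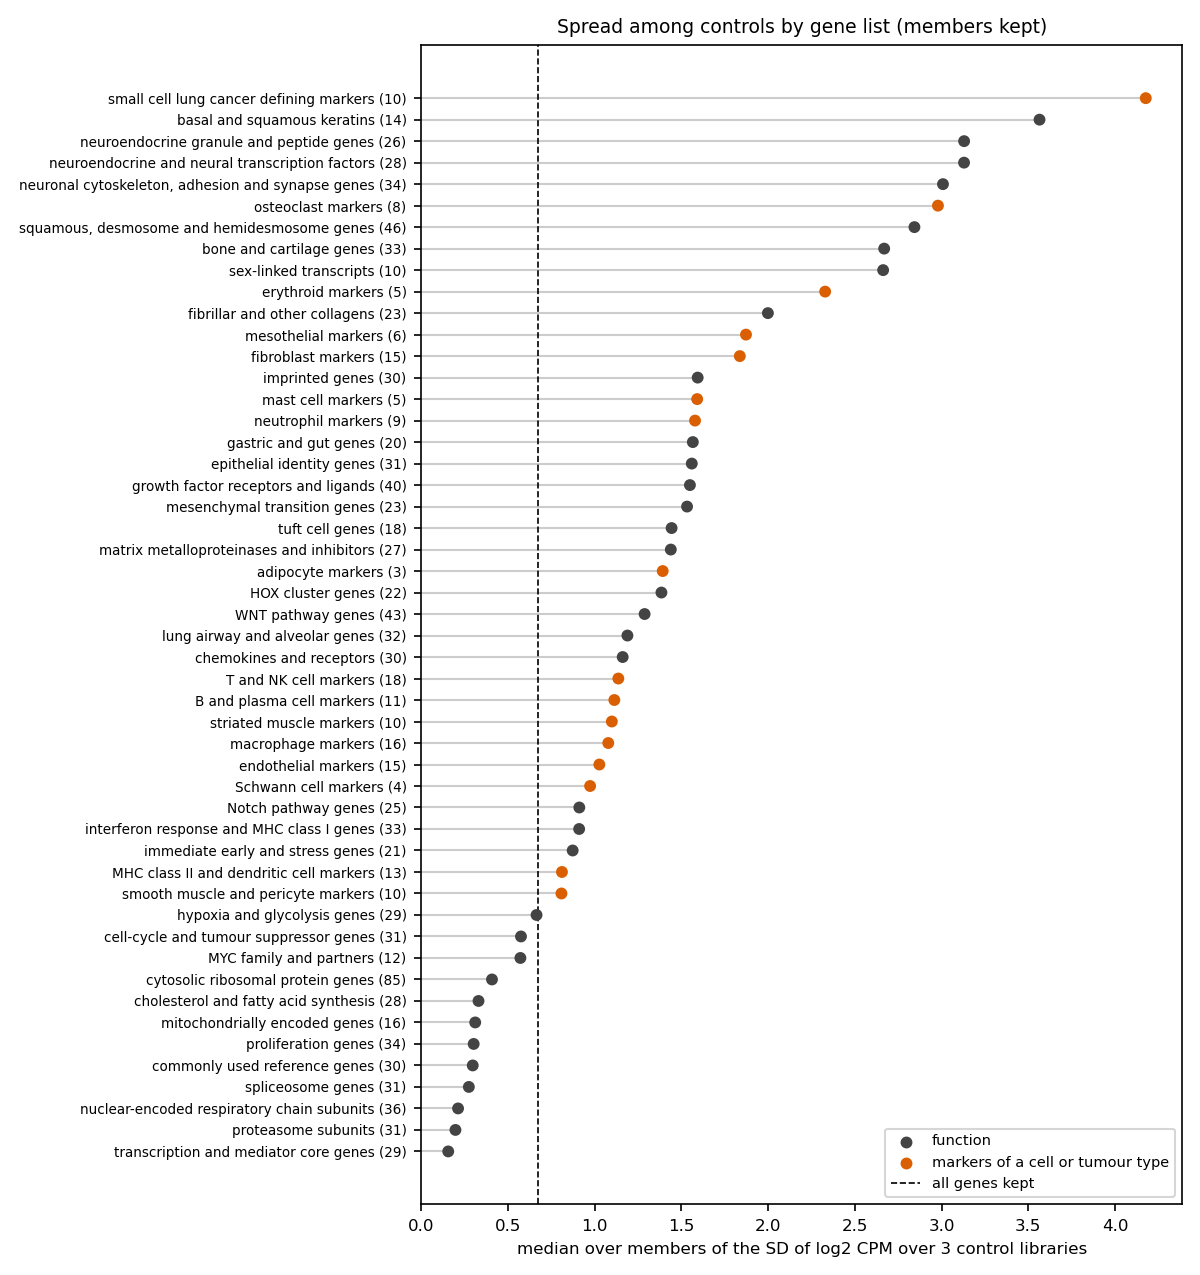
Median SD of log2 CPM over the 3 control libraries (x axis) for the members of 50 gene lists (y axis, with the number of members kept), in grey for functions and in orange for markers of a cell or tumour type, with the median of all genes kept (0.68) as a broken line. Neuroendocrine, neuronal, squamous, bone and osteoclast lists lie far to the right of the line. Other lineage lists lie nearer to it, such as endothelial markers (1.03) and smooth muscle and pericyte markers (0.81). In all, 38 lists lie above it and 12 below, and the basic machinery of the cell lies at the left.

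Neuroendocrine and neuronal genes were high in control 3 and, in many cases, lower in control 2 than in control 1. Of 26 granule and peptide genes kept, 19 were high in control 3 and 11 low in control 2, of 28 transcription factors 22 and 12, and of 34 neuronal genes 27 and 17. The 28 transcription factors were those of 38 listed that passed the read filter. Some, such as Neurod4, passed it only through control 3, so their high call there followed from the filter. The summed level of the granule genes was 653, 236 and 8831 CPM in controls 1, 2 and 3, and that of the neuronal genes 613, 329 and 5123 CPM. In bulk tissue, fewer cells of a type and less RNA per cell cannot be told apart, here and for every lineage below.

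Among the transcription factors, Insm1, which drives neuroendocrine differentiation, was at 18.4, 1.43 and 630.4 CPM in controls 1, 2 and 3. Neurod4, a proneural factor, had no reads in controls 1 and 2 and stood at 22.7 CPM in control 3, at least 146-fold higher when 3 reads are taken as the limit of detection in a library. Myt1 and Prox1, both factors of neural and endocrine cells, were at 3.17, 0.307 and 216 and at 15.03, 3.07 and 463 CPM. Insm1 was 34.2-fold higher in the highest library than in the next (95% exact counting interval 30.8 to 38.2), and control 1 held more of it than control 2, 12.8-fold higher (95% exact counting interval 8.73 to 19.6). These intervals cover counting error only, and reads amplified by PCR without molecular identifiers are not independent molecules.

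Among granule and peptide genes, the peptide precursor gene Calca was at 37.9, 0.973 and 2064 CPM and Pcsk1, a protease that cuts prohormones, at 3.80, 0.819 and 991 CPM. Nts, the neurotensin precursor, was at 0.104, 0 and 103 CPM and 992-fold higher in the highest library than in the next (95% exact counting interval 274 to 8197). Ddc, an enzyme of monoamine synthesis, and Uchl1, a ubiquitin hydrolase widely used as a neuroendocrine stain, were at 14.6, 17.4 and 1138 and 14.9, 19.2 and 427 CPM. Not every member took part. Cpe, the carboxypeptidase that trims prohormones, was at 460.0, 145 and 391 CPM, so control 1 was the highest, and Nmu, the neuromedin U precursor, was high in control 1 at 13.5, 0.358 and 0.303 CPM.

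Most neuronal genes were likewise highest in control 3. Elavl4, an RNA-binding protein of neurons, was at 14.7, 0.102 and 205 CPM, Snap25, part of the machinery of vesicle fusion, at 10.7, 0.0512 and 149 CPM, and Dcx, a microtubule protein of young neurons, at 19.8, 0.307 and 373 CPM. Among the exceptions were Stmn2 and L1cam, a microtubule regulator and an adhesion molecule of neurons. They were highest in control 1, at 125, 2.46 and 64.7 and 114, 62.02 and 39.6 CPM. The channel and receptor genes named by the rule, Kcnj3 (a potassium channel), Adgrb3 (an adhesion receptor of synapses) and Crhr2 (a receptor for stress peptides), stood at 0.260, 0 and 83.6, 0.104, 0.102 and 81.5 and 0.104, 0.102 and 45.9 CPM. By symbol, 11 of 15 Syt genes (synaptotagmins, sensors of vesicle release), 9 of 13 Cacna genes (calcium channels) and 8 of 12 Scn genes (sodium channels) were high in control 3.

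Tuft cell genes, which mark another variant of this cancer, summed to similar levels of 159, 169.8 and 174 CPM, although single members varied, with a median SD of 1.44. Pou2f3, the factor that defines the variant, was at 0.156, 0.871 and 0 CPM, which is 3, 17 and 0 reads. Yap1, the effector of the Hippo pathway, was at 90.7, 84.5 and 12.5 CPM, low in control 3 and level in the others.

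Imprinted genes, expressed from 1 parental copy, were high in control 3 in 15 of 30 members, with summed levels of 660.0, 1073 and 3748 CPM. Magel2 was at least 2201-fold higher there. Ndn, its neighbour and also of the paternal chromosome, was at 1.61, 2.56 and 521 CPM and 203-fold higher in the highest library than in the next (95% exact counting interval 154 to 274). Peg3, a paternally expressed zinc finger gene, was at 45.8, 11.01 and 586 CPM, and Gnas, which encodes a stimulatory G protein subunit, at 20.5, 30.2 and 798 CPM. Dlk1, a paternally expressed Notch-like ligand, took another course with 0.104, 37.7 and 32.9 CPM, nearly absent from control 1. None of the 30 lay within 2-fold over the controls.

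Genes high in control 3 also lay side by side. In the gene order of the GENCODE annotation, where protein-coding genes kept were followed along each chromosome, Snrpn, Ndn, Magel2 and Mkrn3 formed part of a run of 5 consecutive genes high in control 3. Gprasp1, Bex2 and Bex4 were in a run of 8 genes, and Zfp354c, Zfp2 and Zfp354b in a run of 5. Of the clustered protocadherins, adhesion molecules that give neurons their identity, 8 of 8 Pcdha genes and 15 of 22 Pcdhb genes were high in control 3, but 2 of 21 Pcdhg genes were. Pcdha genes share their last exons, and the zinc finger genes have close copies, so how reads were divided among them is uncertain.

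Control 1 carried a squamous programme. Of 14 basal and squamous keratins kept, 11 were high in control 1 and 6 were low in control 3, and their summed levels were 10208, 159 and 34.96 CPM in controls 1, 2 and 3. Of 46 further squamous, desmosome and hemidesmosome genes, 25 were high in control 1, 22 low in control 3 and 1 was high in control 2, with sums of 12134, 2774 and 869.9 CPM. Trp63, which encodes p63, the master factor of basal cells, was at 237, 1.95 and 0.353 CPM and 122-fold higher in the highest library than in the next (95% exact counting interval 88.5 to 172).

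The keratin pair of basal cells, Krt5 and Krt14, was at 2088, 2.46 and 0.353 and 3449.5, 3.58 and 0.706 CPM, and Krt6a, a keratin of activated epithelium, at 989, 0.819 and 0.959 CPM. Control 1 was the high library for each, and the other controls lay below 4 CPM. Krt10 and Krt79, keratins of differentiated epithelium, had no call, with 7.59, 4.92 and 7.57 and 4.32, 2.87 and 1.11 CPM. Krt6a and Krt6b, and Krt14 and Krt16, are similar enough in sequence for their reads to be shared.

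Among junction proteins, the desmosomal cadherin gene Dsg3 was at 270.5, 0.358 and 0.0504 CPM and 755-fold higher in the highest library than in the next (95% exact counting interval 366 to 1878). Col17a1, a collagen of hemidesmosomes, was at 338, 0.768 and 0.303 CPM. Ivl, which encodes involucrin of the cornified envelope, was at 115, 3.99 and 0 CPM, a stepwise order with no read in control 3. The secreted and membrane proteases Tmprss11b and Tmprss11g were at 135, 0 and 0 and 171, 0.154 and 0 CPM, and Tmprss11d to Tmprss11e formed a run of 6 neighbouring genes high in control 1.

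Beside the squamous genes, control 1 was high for Ppbp, which encodes a neutrophil-attracting chemokine precursor known from platelets, at 633, 0.666 and 0.101 CPM, and for the chemokine Cxcl5 at 162, 7.12 and 3.08 CPM. The heat shock gene Hspb1 and the glucose transporter gene Slc2a1 were high in control 1 as well, at 140.5, 18.1 and 11.4 and 334, 76.7 and 46.4 CPM. Of 29 genes of hypoxia and glycolysis, 22 were highest in control 1, against 6436 of all 20783 genes kept, but 2 were called high there. The list summed to 10200, 7704 and 5406 CPM. Within 2-fold lay 10 of its members (34.5%, against 40.2% of all genes), among them Gapdh at 1209, 1468 and 1338 CPM. By symbol, 21 of 35 Krt genes, 8 of 11 Sprr genes (small proline-rich envelope proteins) and 7 of 13 Tmprss genes were high in control 1.

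Control 2 carried genes of bone and connective tissue. Of 33 bone and cartilage genes kept, 14 were high in control 2, and the list summed to 809.5, 5110 and 460.3 CPM in controls 1, 2 and 3. Ibsp had the largest SD of all genes kept, 7.48 on the log2 scale, and was 1829-fold higher in the highest library than in the next (95% exact counting interval 1229 to 2855). Sp7, the osterix factor that osteoblasts require, was at 0, 206 and 0.404 CPM, and Panx3, a channel of osteoblasts, at 0, 80.2 and 0 CPM. Dmp1 and Mepe, matrix proteins of osteocytes, were at 0.520, 126 and 0.202 and 0.0520, 41.3 and 0 CPM, and the phosphatase gene Alpl, needed for mineralization, at 5.72, 325 and 9.59 CPM. Control 2 was the high library for each of these genes, and Alpl was also read in controls 1 and 3. Runx2, which acts above Sp7, was different, at 110.4, 171 and 9.08 CPM, low in control 3 and not called high in control 2. The cartilage matrix genes Acan (aggrecan) and Col2a1 were low in control 1, at 0, 2.77 and 2.02 and 0.260, 14.9 and 5.70 CPM.

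Collagens summed to 1193, 40670 and 6637 CPM, with 6 of 23 high in control 2 and 11 low in control 1. Col1a1, the main chain of bone and scar collagen, was at 134, 21108 and 1216 CPM, 17.4-fold higher in the highest library than in the next (95% exact counting interval 17.1 to 17.6). Col3a1 had another order, 110.2, 1032 and 2321 CPM, highest in control 3, and Col7a1, the anchoring collagen beneath squamous epithelium, was highest in control 1 at 64.5, 39.02 and 26.7 CPM. Fibroblast markers overlap this list and summed to 926, 36094 and 6191 CPM, with 8 of 15 low in control 1. Of the matrix-cleaving enzymes, 8 of 27 were high in control 2. Mmp9, a gelatinase abundant in osteoclasts, was at 3.69, 4368 and 11.1 CPM and 394-fold higher in the highest library than in the next (95% exact counting interval 345 to 451), and the collagenase gene Mmp13 at 8.68, 1821 and 11.96 CPM.

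Osteoclast markers went with the bone genes. All 8 were highest in control 2, as were 5755 of all 20783 genes kept. At least 4-fold so were 5 of them (2.40% over all genes), and their sums were 583, 2091 and 50.4 CPM. Dcstamp, needed for osteoclast fusion, had 0, 393 and 0 reads, and Ctsk, the collagen-digesting cathepsin K, was at 371, 1141 and 11.6 CPM, intermediate in control 1. Tnfsf11, which encodes the osteoclast-inducing ligand RANKL, was at 0.104, 27.6 and 0.404 CPM (named after its values were seen). Erythroid markers were also high in control 2, 5 of 5 kept, with sums of 25.9, 345 and 20.8 CPM and Hba-a1, a globin gene with a near-identical copy, at 10.6, 154 and 8.32 CPM. Endothelial markers were highest in control 2 in 14 of 15 members, against the same 5755 of all 20783 genes kept. Their sums were 466, 1018 and 309.8 CPM, and none was at least 4-fold above both others. The part of blood, vessel and marrow cells in the bone genes was not tested.

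Genes of other tissues were among those named for control 2. Cym, the milk-clotting protease of the stomach, was at 0.208, 1222 and 1.21 CPM, and T (brachyury), the factor of the embryonic notochord and mesoderm, at 0, 27.8 and 0 CPM. Of 20 gastric and gut genes, 7 were high in control 2 and 8 low in control 3. Hnf4a, a factor of gut and liver epithelium, was at 2.91, 53.1 and 0.151 CPM, and Cldn18, a tight-junction gene of stomach and alveoli, at 62.6, 383 and 8.58 CPM. The Wnt antagonists Dkk1 and Wif1 were at 0, 20.6 and 0 and 0.624, 86.8 and 0.252 CPM.

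Sex-linked transcripts separated control 2 from the others. Xist, the RNA that coats the inactive X chromosome of female cells, was at 2.39, 1547 and 1.56 CPM, counted without known strand beside its antisense partner Tsix. Ddx3y, Eif2s3y, Kdm5d and Uty of the Y chromosome were at 0 or 1 read in control 2 and between 30.98 and 129 CPM in controls 1 and 3. Of those 4 genes, Ddx3y had 1638, 0 and 2553 reads. The labels give no sex. These transcripts had the female pattern in control 2 and the male pattern in controls 1 and 3. With control 2 the only library of its pattern, sex cannot be told apart from any other trait of control 2. Eif2s3x, the X-linked partner of Eif2s3y, was among the 10 most constant genes, at 102, 103 and 103 CPM.

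**Figure D3:**
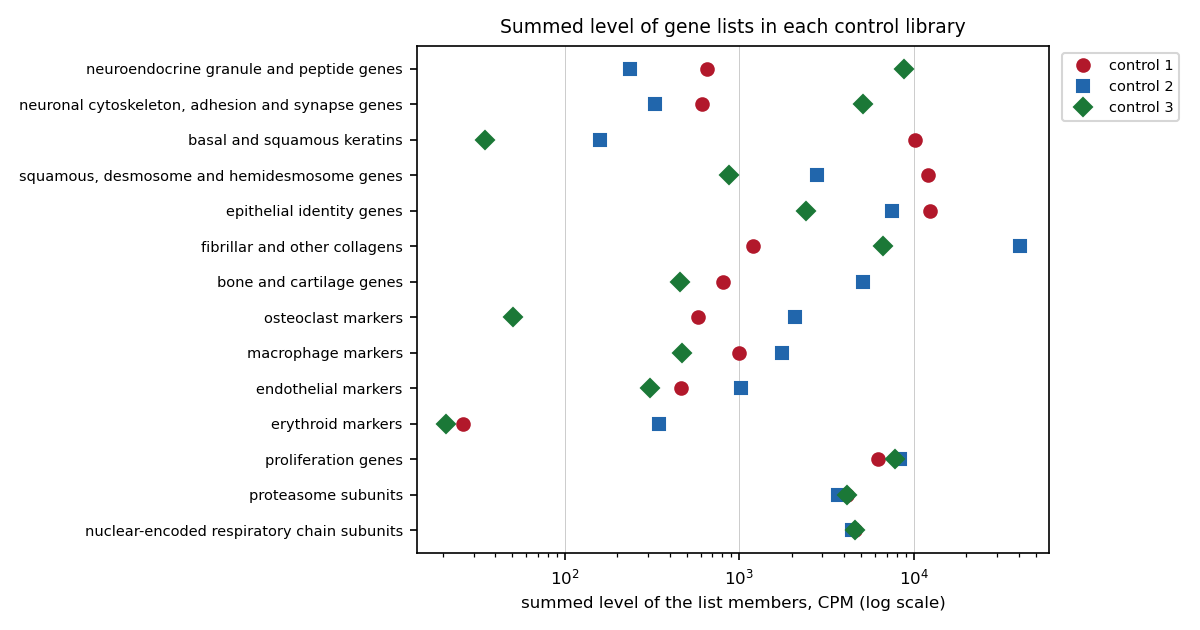
Summed CPM of 14 gene lists (x axis, log scale) in each control library, with a marker per library. Neuroendocrine and neuronal lists are highest in control 3, squamous and epithelial lists in control 1, and collagen, bone, osteoclast, macrophage, endothelial and erythroid lists in control 2, whereas the markers of the lowest 3 lists nearly coincide.

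Several mesenchymal genes were low in control 1. Cdh2, the N-cadherin gene, was at 4.68, 146 and 147 CPM, low in control 1 and alike in the others. Col11a1, a fibrillar collagen gene, was at 0.260, 197 and 64.5 CPM, and Lum, a matrix proteoglycan, at 0.624, 83.4 and 32.4 CPM. Of 23 genes of mesenchymal transition, 7 were low in control 1 and 3 low in control 3, while 1, 3 and 1 were high in controls 1, 2 and 3. Twist1, a factor that drives that transition, was at 0.624, 75.4 and 7.47 CPM. Zeb2, another such factor, was at 37.6, 159 and 165 CPM, with controls 2 and 3 side by side. Cdh11, an osteoblast cadherin, was at 15.3, 367 and 94.3 CPM.

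Epithelial genes were low in control 3. Of 31 epithelial identity genes 16 were low there and 3 high in control 1, and their sums were 12341, 7472 and 2426 CPM. Cdh1, the E-cadherin gene, was at 934, 989 and 159.9 CPM. Control 1 held the middle level and was 5.84-fold higher (95% exact counting interval 5.63 to 6.07) than control 3. Aqp3, a water channel of basal cells, was at 649, 37.2 and 0.504 CPM and Esrp2, a splicing factor of epithelia, at 115, 107 and 5.70 CPM. Epcam was at 596, 427 and 165 CPM and not called, and Cd24a, a surface antigen, ran the other way at 349.8, 401 and 829 CPM. Lung airway and alveolar genes were low in control 3 in 8 of 32 members. Scgb1a1, the secretory protein of club cells, was at 1042, 1400.2 and 121 CPM, and Sftpb, a surfactant protein gene, at 243, 356 and 26.5 CPM. Ccdc39, a gene of motile cilia, was high in control 3, at 10.8, 8.14 and 115 CPM, while Foxj1, the factor of ciliated cells, lay within 2-fold at 25.1, 30.8 and 19.1 CPM.

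Interferon response and antigen presentation genes were lower in control 3. Of 33 members 6 were low there (5.36% over all genes) and none high in any library, and the sums were 8424, 8020.1 and 2702 CPM. In 32 the highest level was in control 1 or 2. Of all 20783 genes kept, 6436 were highest in control 1 and 5755 in control 2. H2-K1, a class I molecule that presents peptides to T cells, was at 2379, 2309.7 and 569 CPM, and B2m, its light chain, at 1082, 1390.4 and 472 CPM. Rsad2, an antiviral effector of the same list, was constant at 39.6, 42.8 and 39.2 CPM. Immune cell markers had lower sums in control 3 too: macrophage markers 992, 1763 and 467 CPM, class II and dendritic cell markers 622, 831 and 274 CPM, and T and NK cell markers 52.2, 52.4 and 24.8 CPM. Ptprc, the antigen CD45 of all white cells, was at 29.1, 52.5 and 17.5 CPM. The part of immune cells in the interferon genes was not tested.

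Single signalling genes also differed between libraries. In the Notch pathway, with 25 members kept, Dll3, an inhibitory ligand and drug target in this cancer, was at 1.04, 0.102 and 55.3 CPM, the receptor gene Notch2 at 152, 183 and 28.1 CPM and the target Hes1 at 170.2, 91.3 and 20.9 CPM. Dll3 was thus high and Notch2 low in control 3, whereas of the whole list 4 members were high there, 2 low there, 1 high in control 2 and 2 each low in controls 1 and 2. Rbpj, the DNA-binding partner of Notch, was constant at 104, 119.6 and 113 CPM. Among 40 growth factor receptors and ligands, 7 were high and 9 low in control 3. Erbb4, the neuregulin receptor expressed in neurons, was at 0.0520, 0.205 and 40.6 CPM, whereas Erbb2 and Met, receptors typical of epithelia, were at 237, 137 and 14.3 and 179, 85.3 and 11.00 CPM. Ret, a receptor of neural and endocrine cells, was at 6.91, 19.2 and 137 CPM, and the receptor gene Fgfr1 was high in control 2 at 30.4, 254 and 41.6 CPM. Of 43 WNT pathway genes, 3, 4 and 3 were high in controls 1, 2 and 3 and 4, 2 and 7 were low. Over all genes, the shares high were 2.64%, 2.40% and 9.41% and the shares low 1.77%, 2.38% and 5.36%. A call of any kind fell on 39.5% of the WNT list, 40% of the Notch list and 50% of the growth factor list, against 21.3% of all genes.

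Proliferation genes differed less than most genes. The list of 34 proliferation genes had a median SD of 0.30 and 28 members within 2-fold, and its sums were 6259.9, 8333 and 7787 CPM, lowest in control 1. Mki67, the Ki-67 antigen of dividing cells, was at 834, 1409 and 1600.1 CPM, and Rrm2, a subunit of ribonucleotide reductase, at 269.8, 217 and 254 CPM. Of the MYC family, none of 12 members was called, with Myc at 36.5, 30.3 and 20.2, Mycl at 122, 49.3 and 86.4 and Mycn at 3.33, 11.1 and 16.6 CPM. Among tumour suppressors, Rb1 was at 140.4, 92.5 and 263, Trp53 at 13.8, 18.4 and 20.1 and Rbl2 at 41.5, 25.5 and 56.3 CPM. Reads outside a deleted part of a gene would still be counted, so these levels do not check any deletion. Of 31 cell-cycle and tumour suppressor genes, 5 were called (16.1%), against 21.3% of all genes. All 31 reached 5 CPM in a library, as did 14163 of the 20783 genes kept, so these shares are not of like sets. Cdkn2b, an inhibitor of cyclin D kinases, Cdk6 and Ccnd1 were low in control 3, at 90.8, 93.2 and 12.5, 35.6, 24.7 and 4.44 and 23.4, 34.8 and 5.04 CPM, and Ccne2 was high there at 27.7, 34.6 and 153 CPM. Nfib, a chromatin-opening factor linked to the spread of this cancer, was also high there at 143, 168 and 727 CPM.

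Lists of core machinery were the most constant. The 500 genes with the smallest SD among those with a mean of at least 20 CPM had SDs of 0.0023 to 0.106 and a median highest-to-lowest ratio of 1.10, where counting alone gave a median SD of 0.0395. Transcription and mediator genes had a median SD of 0.16 with 28 of 29 within 2-fold, proteasome subunits 0.20 with 31 of 31, respiratory chain subunits 0.21 with 33 of 36 and spliceosome genes 0.27 with 30 of 31. Cholesterol and fatty acid synthesis had 23 of 28 members within 2-fold, with Scd1, a fatty acid desaturase gene, as the 1 call, at 525, 561 and 58.02 CPM. Families defined by symbol gave the same picture: Coq (coenzyme Q synthesis), Trappc (vesicle tethering), Lsm (RNA rings), Med and Cnot (transcription and mRNA decay) were the 5 with the smallest median SD of 235 families. The largest was that of the Cdh genes (cadherins), at 2.69.

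The gene with the smallest SD at a mean of at least 50 CPM was Arhgap12, a GTPase regulator, at 62.6, 62.6 and 62.8 CPM. Its SD was 0.0023, where counting alone would give 0.041. Cct3, a subunit of the chaperonin that folds actin and tubulin, was at 194, 194 and 195 CPM, and Gabpa, a factor of housekeeping promoters, at 82.8, 83.98 and 83.6 CPM. The SDs of Cct3 (0.0046 against 0.023), Gabpa (0.011 against 0.036), Pcif1 (0.0028 against 0.033) and Eif2s3x (0.0091 against 0.032) were also below counting. Spreads this small are partly luck of the draw, so the order among the most constant genes is not resolved. Of 30 commonly used reference genes, 23 lay within 2-fold. Psmb2 was at 86.6, 89.5 and 90.8, Ywhaz at 594, 613 and 523 and Polr2a at 268, 325 and 298 CPM, whereas Tuba1a, a tubulin of neurons, was high in control 3 at 76.4, 137 and 1279.7 CPM. Actb and Pgk1 were at 1369.7, 1955 and 963 and 837, 384 and 300.1 CPM, outside 2-fold. Ribosomal protein genes summed to 33360, 26027 and 20220 CPM, with 65 of 85 within 2-fold. Of the 85, 73 were highest in control 1, against 6436 of all 20783 genes kept.

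Chromosome 19 differed as a whole. Over its 278 protein-coding genes with a mean of at least 20 CPM, control 2 exceeded control 3 by a median of 1.04 on the log2 scale, a 2.05-fold ratio, and was the higher in 252 of the genes. Control 1 exceeded control 3 by 0.75 (233 of the genes). Control 2 exceeded control 1 by a ratio of 1.18, close to the 1.17 of chromosome 10, so that smaller difference was not particular to chromosome 19. For control 1 minus control 2 its median was -0.24, and those of the other autosomes lay between -0.22 and 0.27. On the other 18 autosomes the medians for control 2 minus control 3 lay between -0.14 and 0.15, and of all 9161 such genes 53.5% were higher in control 2 than in control 3. The shift ran along the whole chromosome: medians over each 61 neighbouring genes ranged from 0.91 to 1.18. In the 243 genes with no call in any library it was 0.97. Among its genes are Kif11, a mitotic motor, and Ddb1, a subunit of a ubiquitin ligase, at 135, 229 and 107 and 305, 396 and 214 CPM. These 2 were chosen after their values were seen, as was the chromosome. Genes of chromosome X, with 291 measured, had a median for control 1 minus control 2 of 0.48 and for control 2 minus control 3 of -0.08.

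**Figure D4:**
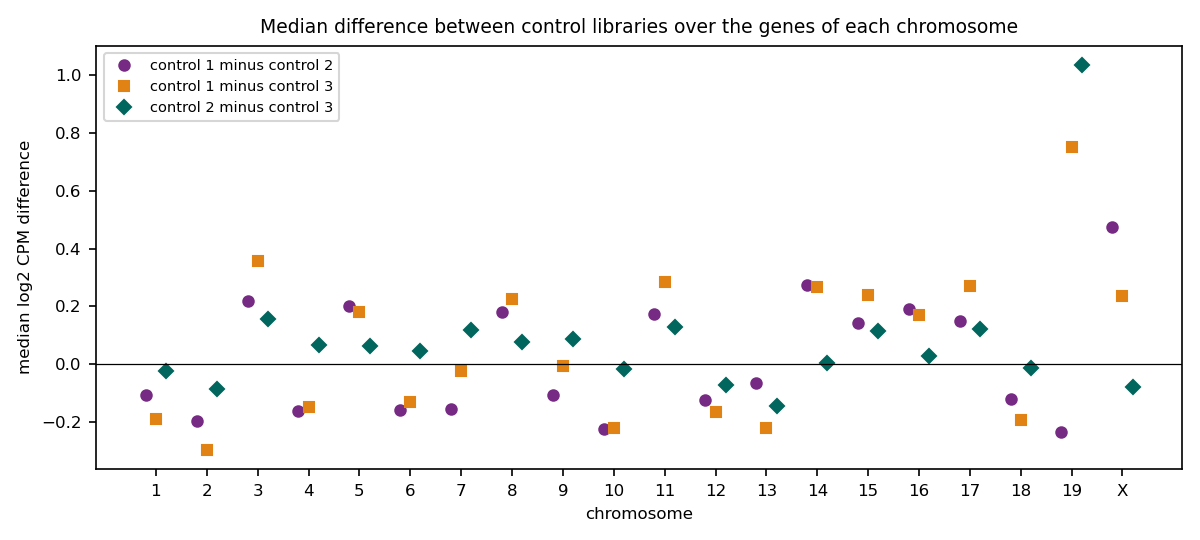
Median log2 CPM difference (y axis) over the protein-coding genes of each chromosome with a mean of at least 20 CPM (x axis), with a marker for each pair of control libraries. Chromosome 19 stands apart in both pairs with control 3, at 0.75 and 1.04, while no other autosome lies outside -0.30 to 0.36 in any pair.

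Promoter composition went with the spread. A promoter was found in the RefSeq table for 13411 of the genes kept, and their median ratio of observed to expected CG pairs was 0.71. It was 0.85 for the 408 promoters of the 500 most constant genes and 0.48 for the 351 of the 500 most variable ones. Only the constant set was limited to genes with a mean of at least 20 CPM. The median of the mean level was 68.3 CPM in the constant set, 18.2 in the variable set and 14.8 over all genes kept. The part of expression level in this difference was not tested. Genes high in control 1 had a median of 0.29 and genes high in control 2 one of 0.33, against 0.60 for genes high in control 3. Of the printed promoters, Krt13 held the fewest CG pairs and Pcif1 the most. A match to TATAAA on either strand was found in 20.2%, 16.2% and 9.10% of promoters of genes high in controls 1, 2 and 3, against 8.39% over the genes kept and 14.2% of all 27025 promoters in the table. TGANTCA, the letters that AP-1 factors bind, was found in 18.4% of promoters high in control 1, in 12.7% of those low in control 3, in 5.85% over the genes kept and in 7.93% of all. The Krt13 and Magel2 windows hold 1 match each. TTCAGCACC, letters of the site of the neuronal repressor REST, was found in 9 of 336 promoters low in control 2, 2.68%, and in 19 of 1242 high in control 3, 1.53%, against 0.388% over the genes kept and 0.359% of all. A window without a match says nothing of a factor, and a match is not a bound site. The last letters of TGANTCA can run into TTCAGCACC, so the searches are not wholly separate. Nor are the sets of promoters, since 548 of the genes kept were both high in 1 library and low in another and count in 2 sets. CAGCTG, an E-box of proneural factors, was found in 22.6% of promoters low in control 2, 21.1% of those high in control 3 and 20.3% of those low in control 3, against 15.96% over the genes kept and 16.1% of all.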

How the data were processed

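Whole-number read counts per gene were deposited by the authors in 1 table of the series. Per the submitters' processing notes, reads were handled with STAR and build mm39. How reads were counted, over which annotation and with which strand setting, is not given in the sources used here. Only the 3 control columns were used, and the 3 other per-sample columns were left out. Genes with at least 10 reads in a control and 15 in all were kept and scaled by TMM in edgeR 4.0.16 under R 4.3.3. A gene read in 1 library only was kept through that library, so its high call there followed from the filter. Log2 CPM used a prior count of 2. CPM is not corrected for gene length, so levels are compared between libraries only. Nothing separates the libraries' biological from technical spread, and no p-value was computed. A call is a fold of at least 4 from each other control. Zero counts were bounded at 3 reads in a library.

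By the naming rule, each control's 10 leading high and 5 leading low genes, the 10 most constant, up to 4 most and 2 least variable members of each list, and a set of lineage genes are named, some of which are not reported here. Acan, Actb, Alpl, Col3a1, Ddc, Ddb1, Dmp1, Erbb2, Fgfr1, Gnas, H2-K1, Hes1, Kif11, Krt10, Krt79, Met, Nfib, Nmu, Notch2, Peg3, Polr2a, Prox1, Ret, Runx2, Scgb1a1, Sftpb, Stmn2, Tnfsf11, Uchl1 and Zeb2 were named after their values were seen. Members, lists and tests were chosen with earlier results of these data known. The scripts were tested on simulated data. Gene order came from GENCODE on GRCm38, with no coordinates taken from it. Other scalings, filters, prior counts, fold limits and leaving out each library were tried.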

Additional observations from a re-analysis of the deposited data

How the results depend on the processing

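Scaling by DESeq2 size factors, upper quartiles or library totals left all counts of calls within 1.5 times. Of 203 calls of named genes, 14 fell below 4-fold under at least 1 of 7 alternatives in scaling, filter or prior count and none reversed. Among them the low calls of Krt13, Krt14, Trp63, Cym, Sp7, Pcsk1 and Dll3 were lost with a prior count of 5, while their high calls stood. Of the named genes with no call, 9 crossed the 2-fold limit under an alternative, Mki67 among them. With limits of 2-fold and 8-fold, genes high in control 1 numbered 1485 and 282, in control 2 1446 and 218, in control 3 3648 and 1170. Genes low in control 1 numbered 1417 and 93, in control 2 1355 and 181, in control 3 3156 and 331. A prior count of 0.5 gave 565 low in control 1 and 776 in control 2, and a prior count of 5 gave 293 in control 2. Genes within 2-fold numbered 14541 with no filter, 4486 with a limit of 1.5-fold, and 10977 to 14909 with a library left out, the most without control 3. The median SD was 0.37 (without control 3) to 0.65 with a library left out and 0.45 at a mean of at least 20 CPM, and the tagwise biological coefficient of variation was 0.696. No paired analysis was possible because no groups are compared. With 1 library per tumour, biological and technical differences cannot be told apart. At a few reads per gene, low levels are limited by counting.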
